A study of Mus musculus with 16 samples.

Results

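The cathepsin genes Ctse, Ctsd, Ctsh, Ctsl, Ctsb, Ctss, Ctsc, Ctsz and Ctsk were described in laser-captured epithelial cells of the mouse ileum. They are 9 of the 8251 genes that had a probe set of their own on the array, and 16 of its 12488 probe sets measured them. The genes were chosen by name, with earlier results of these same arrays known, so their levels and differences are a description and carry no p-values. The arrays fell into 3 groups, adenoma (n = 5), carcinoma (n = 5) and WT (n = 6), by the words in the sample titles. All 16 shared the same handling: cells were taken by laser capture, their RNA was amplified in 2 rounds, and the product was hybridised to the Affymetrix MG_U74Av2 array, which reads each gene through sets of short probes. The titles call the reference group WT, commonly short for wild type, and give no genotype for the mice with tumours. Whether the tumour and WT arrays also differ in genotype is therefore not stated. The strain and age of the mice, how the cells were chosen for capture, and how many animals gave the samples are not stated in the labels. Errors and p-values therefore measure the spread between these samples, which may be technical.

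Cathepsins are proteases of the lysosome and the endosomes, the compartments in which cells break down taken-up and worn-out proteins. They are made as inactive precursors, and most become active by cleavage in an acid compartment. Ctse and Ctsd encode aspartic proteases, and the other 7 genes here encode papain-like cysteine proteases. In the gut wall, lysosomal proteases are made by the epithelium as well as by macrophages and other cells of the connective tissue beneath it, and class II antigen presentation needs them.

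The captured cells carried epithelial transcripts in every group: Vil1, which encodes villin of the brush border, averaged 12.63 in adenoma, 12.36 in carcinoma and 13.04 in WT on the log2 signal scale, and Epcam, an adhesion protein of epithelial cells, averaged 12.97, 13.10 and 13.20 in the same groups. Of 14 intestinal epithelial markers tested with limma across all 7455 genes, none passed as higher in either tumour, 3 passed as lower in adenoma and 3 in carcinoma, and Fabp2 and Muc13 were among these in both. Over all genes 4.02% were called higher and 4.25% lower in adenoma, and 4.16% and 4.9% in carcinoma, shares that stand beside the counts of every list below. Krt18, a keratin, read 1.38 ± 0.43 higher in adenoma and 1.24 ± 0.43 higher in carcinoma without passing (limma adjusted p = 0.0562 and 0.0809). Of the 14, 11 read below WT in each tumour. In carcinoma Fabp2 fell by 3.43 ± 0.63, Krt20 by 1.22 ± 0.29 and Muc13 by 1.02 ± 0.25 (limma adjusted p = 0.00156, 0.0112 and 0.0132). Each of these carcinoma calls held in 16 of 16 fits with 1 array left out and was lost with the Gapdh ratio, given below, as a covariate. With 1 array left out, the adenoma calls of Fabp2 and Muc13 each held in 8 of 16 fits. The third adenoma call, Cdx1 (limma adjusted p = 0.0493), held in 4 of 16. The Fabp2 difference in adenoma ran from -2.65 to 0.01 over 29 alternative settings of scaling, floor, filter, covariates and arrays included. The summed signal of the list ran from 80192 to 120841 in adenoma, 63267 to 135842 in carcinoma and 110543 to 232242 in WT. Technical measures also differed between groups. The mean log2 signal of the spiked-in bacterial transcripts, added in the hybridisation mix, was 12.24 ± 0.82 in adenoma, 12.23 ± 0.50 in carcinoma and 13.74 ± 1.0 in WT (SD, n = 5, 5 and 6). The log2 ratio of Gapdh signal at the 3′ end to that at the 5′ end, which is high where transcripts are cut short, was 5.82 ± 0.24 in adenoma, 5.70 ± 0.58 in carcinoma and 4.52 ± 0.39 in WT. The Gapdh ratio ran from 5.52 to 6.12 in adenoma, 4.95 to 6.45 in carcinoma and 4.09 to 5.02 in WT. It thus nearly followed the split of WT from tumour. Values adjusted for it have wide errors, and the adjustment cannot separate the ratio from the group. The part of either measure in the differences below was not tested beyond the values given after adjustment for each in the fit.

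Promoters are shown for Ctsd, Ctss and Ctsk. Ctsd averaged higher in both tumours and, among the 4 members whose promoter window begins at the outermost start of the gene, is the one with E-boxes, the letters CACGTG, which are bound among others by the lysosomal regulator TFEB. Ctss and Ctsk averaged lower in both tumours, without passing limma's threshold, and are neighbours on chromosome 3, with no protein-coding gene annotated between them. Each sequence is the 250 bases before the RefSeq start of the gene in build GRCm38.p6, written in the direction of the gene, with CACGTG and the GC box GGGCGG, on either strand, in capitals (CCGCCC is the GC box on the other strand). Ctsd lies at chr7:142387828-142388077 on the minus strand, Ctss at chr3:95526536-95526785 and Ctsk at chr3:95498960-95499209, both on the plus strand.
Ctsd: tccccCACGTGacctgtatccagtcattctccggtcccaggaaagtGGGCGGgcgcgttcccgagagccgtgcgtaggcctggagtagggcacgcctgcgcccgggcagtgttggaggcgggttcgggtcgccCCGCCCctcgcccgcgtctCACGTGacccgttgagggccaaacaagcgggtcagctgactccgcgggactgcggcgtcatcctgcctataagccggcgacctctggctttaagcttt
Ctss: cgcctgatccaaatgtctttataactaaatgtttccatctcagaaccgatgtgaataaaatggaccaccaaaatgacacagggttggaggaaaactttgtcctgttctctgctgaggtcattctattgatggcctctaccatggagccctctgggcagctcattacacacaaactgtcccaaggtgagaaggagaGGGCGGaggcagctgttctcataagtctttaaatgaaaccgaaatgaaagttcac
Ctsk: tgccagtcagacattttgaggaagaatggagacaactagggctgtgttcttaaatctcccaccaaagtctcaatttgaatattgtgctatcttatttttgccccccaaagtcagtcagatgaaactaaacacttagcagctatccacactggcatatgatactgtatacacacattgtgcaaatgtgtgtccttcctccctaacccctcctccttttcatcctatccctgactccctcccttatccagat
The Ctsd window held CACGTG at 2 places, starting at positions -245 and -98 relative to the gene start, and GGGCGG at 2 places. The Ctss window held 1 GGGCGG, starting at position -55, and the Ctsk window neither motif. Over 32851 mouse promoters of the same length, 6.02% held CACGTG and 32.7% held GGGCGG. The AP-1 letters TGANTCA, searched on both strands and found in 6.75%, were in none of those 4 windows (Ctsd, Ctss, Ctsz and Ctsk). A longer motif with CACGTG at its centre was also searched. It was in none of those 4 windows and in 0.24% of the mouse promoters. The Ctsl window, left out because it begins inside the gene span, held CACGTG at 1 place. These matches are letters in a window, and no binding was measured. The part of TFEB in the Ctsd difference was not tested.

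Ctse was at or near the lower limit of measurement in WT and at a high signal on every tumour array. It encodes cathepsin E, an aspartic protease of endosomes that is known from the surface epithelium of the stomach and from antigen-presenting cells. Values are log2 of the deposited signal after all values under the 25th percentile, a signal of 46.9 or 5.55 on the log2 scale, were raised to that floor. Ctse read 11.97, 12.10, 12.74, 11.84 and 11.84 on adenoma arrays 1 to 5 and 11.20, 11.47, 11.28, 12.66 and 11.98 on carcinoma arrays 1 to 5. The WT arrays had a lowest and a median value of 5.55, the floor, and a highest of 7.01. Every tumour array therefore lay above every WT array, and only 2 of the 6 WT arrays, WT 3 and WT 5, were above the floor. Ctse was 6.26 ± 0.33 higher in adenoma and 5.88 ± 0.33 higher in carcinoma than in WT (log2 difference ± SE from the limma fit), or 76.7-fold and 58.9-fold, and both folds are understated because most WT values sit at the floor. Ctse passed the filter on low values mainly through the tumour arrays, so a difference was built into its presence among the genes tested. As deposited, before the floor, its signal ran from 3656 to 6818 in adenoma, 2348 to 6468 in carcinoma and 18 to 129.2 in WT.

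The other probe sets named Ctse did not show this pattern. Probe set 93860_i_at averaged 8.39 ± 0.67 in adenoma, 7.78 ± 0.88 in carcinoma and 7.83 ± 0.86 in WT (SD), and its differences from WT were 0.56 ± 0.45 and -0.05 ± 0.45 (SE). Probe set 93861_f_at differed from WT by 0.54 ± 0.49 in adenoma and 0.64 ± 0.49 in carcinoma. Both tumour groups overlapped WT on both of these probe sets. They were designed from a sequence record other than that of 104696_at, the probe set described above, and the manufacturer's letters i and f in their names mark probe sets that are incomplete or shared by a family of similar sequences. Whether they read Ctse was not checked, as no probe sequences were used here. Averaging all 3 probe sets gave log2 differences of 2.46 in adenoma and 2.15 in carcinoma.

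Ctsd encodes cathepsin D, the main aspartic protease of lysosomes in most cells. It read 11.01, 11.31, 10.65, 10.74 and 10.95 on the adenoma arrays and 10.61, 10.40, 10.04, 10.45 and 10.93 on the carcinoma arrays, against a lowest value of 9.27, a median of 9.82 and a highest of 10.09 on the WT arrays. All adenoma arrays lay above all WT arrays, while carcinoma 3 fell inside the WT range. The log2 difference from WT was 1.19 ± 0.24 in adenoma (2.28-fold) and 0.74 ± 0.24 in carcinoma (1.67-fold). Unlike Ctse, Ctsd was well above the floor on all 16 arrays, so its folds are not limited by it. Adjusted for the Gapdh ratio, the differences were 0.75 ± 0.40 and 0.34 ± 0.37 (SE).

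**Figure D1:**
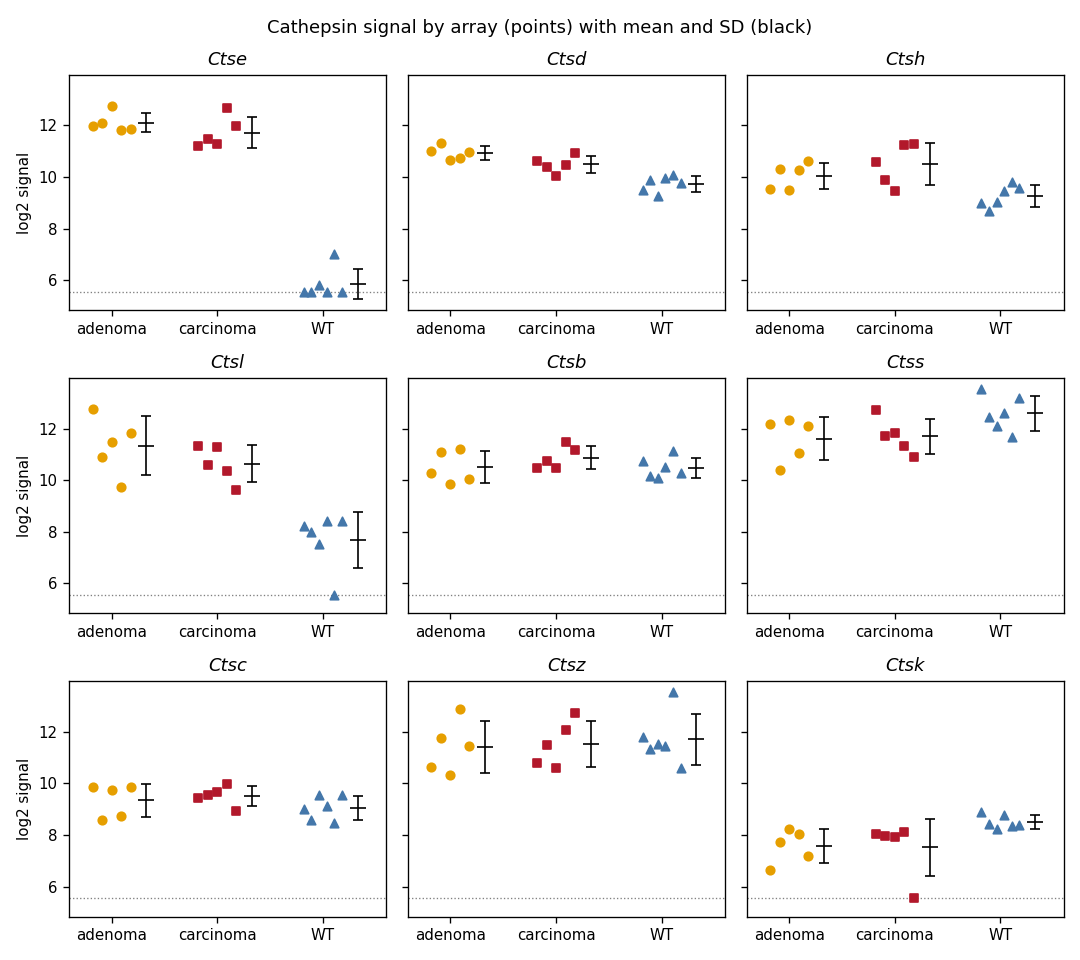
Log2 signal of the 9 cathepsin genes (vertical axis, deposited signal after the floor) on each adenoma, carcinoma and WT array, with the group mean and SD in black and the floor of 5.55 as a dotted line. Ctse and Ctsl stand apart from WT in both tumour groups, Ctsd in adenoma, and Ctsk lies below WT on all 5 carcinoma arrays.

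Ctsl was the cysteine protease gene with the largest difference among the members. It encodes cathepsin L, an endopeptidase that degrades proteins broadly in lysosomes. It read 12.77, 10.88, 11.48, 9.74 and 11.84 on the adenoma arrays and 11.31, 10.60, 11.30, 10.34 and 9.61 on the carcinoma arrays. The WT arrays had a lowest value of 5.55, at the floor on WT 5, a median of 8.10 and a highest of 8.41. Neither tumour group overlapped WT, and the spread within adenoma, 9.74 to 12.77, was the widest of any tumour group among the members' main probe sets. The log2 difference from WT was 3.66 ± 0.54 in adenoma (12.7-fold) and 2.95 ± 0.54 in carcinoma (7.74-fold). Adjusted for the spike-in signal these were 2.54 ± 0.59 and 1.82 ± 0.59 (SE), and adjusted for the Gapdh ratio 4.64 ± 0.91 and 3.84 ± 0.86.

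Ctsh encodes cathepsin H, a cysteine protease that acts mainly as an aminopeptidase. It read 9.52, 10.29, 9.51, 10.25 and 10.60 on the adenoma arrays and 10.59, 9.88, 9.47, 11.24 and 11.29 on the carcinoma arrays. The WT arrays ran from 8.69, with a median of 9.25, to 9.80. Carcinoma 3 and adenoma 1 and 3 lay inside the WT range, and the other tumour arrays lay above it. The log2 difference from WT was 0.78 ± 0.35 in adenoma and 1.24 ± 0.35 in carcinoma. It was 0.07 ± 0.58 in adenoma and 0.59 ± 0.54 in carcinoma (SE) after adjustment for the Gapdh ratio. When single arrays were left out it was between 1.04 and 1.49 in carcinoma.

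Ctss and Ctsk, the neighbours on chromosome 3, averaged lower in both tumours, and neither passed limma's threshold in either. Ctss encodes cathepsin S, which in antigen-presenting cells cuts the invariant chain (the product of Cd74) away from class II molecules. It read 12.18, 10.40, 12.32, 11.05 and 12.11 on the adenoma arrays and 12.72, 11.72, 11.81, 11.31 and 10.90 on the carcinoma arrays. The WT arrays ran from 11.65, with a median of 12.52, to 13.52, so that all 3 groups overlapped. The log2 difference from WT was -0.97 ± 0.41 in adenoma (1.96-fold lower) and -0.89 ± 0.41 in carcinoma (1.86-fold lower). Adjusted for the Gapdh ratio it was -0.41 ± 0.71 and -0.38 ± 0.67 (SE).

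Ctsk encodes cathepsin K, a collagen-degrading protease best known from osteoclasts, the bone-resorbing cells. It read 6.64, 7.74, 8.24, 8.06 and 7.17 on the adenoma arrays and 8.04, 7.97, 7.93, 8.12 and 5.55 on the carcinoma arrays, the last at the floor. The WT arrays lay close together, from 8.22, with a median of 8.41, to 8.91. All carcinoma arrays lay below all WT arrays, and adenoma 3 overlapped WT. The log2 difference from WT was -0.94 ± 0.41 in adenoma (1.92-fold lower) and -0.99 ± 0.41 in carcinoma (1.99-fold lower). Without adenoma 4, carcinoma 5 and WT 5 the carcinoma difference was -0.53. Adjusted for the Gapdh ratio the differences were 0.16 ± 0.66 and 0.01 ± 0.62 (SE). These errors are wide on both sides of 0, so that setting does not settle the direction of Ctsk.

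Genes of class II antigen presentation, in which Ctss takes part, were also lower. Of 11 tested, 3 fell in adenoma and 5 in carcinoma (limma, adjusted p under 0.05 over all 7455 genes), none rose, and the list's median log2 difference was -1.08 in adenoma and -0.90 in carcinoma, against -0.14 over all genes in each tumour. Over all genes, 4.25% were called lower in adenoma and 4.9% in carcinoma. H2-Ab1, a class II beta chain, fell by 1.63 ± 0.45 in adenoma (limma adjusted p = 0.0319) and by 2.60 ± 0.45 in carcinoma (limma adjusted p = 0.000894). Cd74, the invariant chain, fell by 1.08 ± 0.27 in adenoma and 1.02 ± 0.27 in carcinoma (limma adjusted p = 0.0174 and 0.0228). H2-DMa, part of the exchange factor that loads peptides, fell by 1.69 ± 0.38 and 1.41 ± 0.38 (limma adjusted p = 0.00802 and 0.0237). H2-Aa and H2-Oa passed in carcinoma alone, at log2 differences of -2.24 and -1.69, and their adenoma values were -1.35 and -1.33; carcinoma and adenoma did not differ past the threshold in any gene of the list. When 1 array was left out, the H2-Ab1 call in adenoma was lost without WT 1, 2 or 4 or adenoma 1, 2 or 5 (log2 difference -1.89 to -1.50 over these fits), that of Cd74 without adenoma 1 (-1.18 to -0.94) or, in carcinoma, carcinoma 1 or 2 (-1.19 to -0.82), that of H2-DMa in carcinoma without WT 2 or carcinoma 2 or 3 (-1.62 to -1.18), and that of H2-Oa in 9 of 16 fits (-2.09 to -1.43). None of these class II calls held after adjustment for either the Gapdh ratio or the spike-in signal, or without 4 WT arrays of high spike-ins. That last setting keeps WT 3 and WT 6 as the only WT arrays, so it also has less power to call a gene. Over all 29 alternative settings H2-Ab1 in carcinoma ran from -2.97 to -1.83, H2-Aa in carcinoma from -2.64 to -1.25, and H2-DMa in carcinoma from -1.62 to -0.49.

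Markers of other cells that express Ctss or Ctsk were read on the same arrays. Summed class II signal ran from 1784 to 2797 in adenoma, 1660 to 2823 in carcinoma and 3134 to 7441 in WT. Of 23 macrophage and monocyte markers tested, none passed limma's threshold in either tumour (4 in adenoma and 5 in carcinoma had an unadjusted p under 0.05), their median log2 differences were -0.44 and -0.08, and their summed signal ran from 10576 to 17440 in adenoma, 12317 to 23608 in carcinoma and 8899 to 23673 in WT. Itgam and Marco were at the floor on every array. Of the 23, 15 read lower than WT in adenoma and 12 in carcinoma; the values ran from -1.11 ± 0.38 for Msr1, a scavenger receptor, to 1.42 ± 0.59 for Lgals3, a galectin, in adenoma, and from -0.85 ± 0.29 for Itgax, an integrin, to 1.28 ± 0.59 for Lgals3 in carcinoma. Of 11 T cell, B cell and plasma cell markers, 4 fell and 1, Sdc1, rose in adenoma. In carcinoma 2 of them fell and Sdc1 rose. None of these T cell, B cell and plasma cell calls passed after adjustment for the Gapdh ratio. Those other than Jchain were also lost without 4 WT arrays of high spike-ins. The summed signal of this list was 2762 to 3632 in adenoma, 2863 to 5036 in carcinoma and 3702 to 5592 in WT. Of 19 fibroblast and matrix markers, 1 rose and 2 fell in adenoma and 4 rose and 2 fell in carcinoma. None of these fibroblast and matrix calls passed after adjustment for the Gapdh ratio. Without 4 WT arrays of high spike-ins, all the adenoma calls were lost, as were Col6a1, Dcn and Fn1 in carcinoma. After adjustment for the spike-in signal, Fbln2 and Acta2 in adenoma and Col6a1 and Acta2 in carcinoma were lost. Acta2 in adenoma and Col6a1 and Dcn in carcinoma each held in 9 of 16 fits with 1 array left out. Col1a1 in carcinoma was also lost with the mean of its probe sets (0.16). The summed signal of these markers was 11351 to 18206 in adenoma, 14279 to 25357 in carcinoma and 9874 to 19591 in WT. In captured tissue, fewer cells of a type and less RNA per cell cannot be told apart, and the part of these cells in the cathepsin differences was not tested.

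Ctsb, Ctsc and Ctsz showed small differences with intervals on both sides of 0. Ctsb encodes cathepsin B, a cysteine protease that trims pairs of residues from protein ends and also cuts within chains. Its main probe set read 10.28, 11.11, 9.87, 11.20 and 10.06 in adenoma and 10.45, 10.74, 10.49, 11.50 and 11.18 in carcinoma, against a lowest of 10.08, a median of 10.38 and a highest of 11.12 in WT. The log2 difference from WT was 0.03 in adenoma (95% interval -0.62 to 0.67) and 0.40 in carcinoma (-0.25 to 1.04). The other 3 Ctsb probe sets gave 0.24, -0.16 and -0.41 in adenoma and 0.45, -0.20 and -0.27 in carcinoma, so that they did not share a direction.

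Ctsc encodes cathepsin C, or dipeptidyl peptidase 1, which activates the serine proteases of mast cell and neutrophil granules. Its main probe set read 9.86, 8.57, 9.74, 8.73 and 9.85 in adenoma and 9.42, 9.55, 9.67, 9.99 and 8.91 in carcinoma, against 8.44 to 9.57 with a median of 9.06 in WT. The log2 difference was 0.31 in adenoma (95% interval -0.35 to 0.97) and 0.47 in carcinoma (-0.19 to 1.13). Its other probe sets pointed the other way, at -0.59 and -0.23 in adenoma and -0.03 and -0.23 in carcinoma.

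Ctsz encodes cathepsin Z, also called cathepsin X, a carboxypeptidase. It read 10.62, 11.75, 10.32, 12.90 and 11.44 in adenoma and 10.78, 11.48, 10.61, 12.05 and 12.72 in carcinoma, against a lowest of 10.60, a median of 11.49 and a highest of 13.54 in WT. The groups overlapped throughout. The log2 difference was -0.30 in adenoma (95% interval -1.39 to 0.79) and -0.18 in carcinoma (-1.27 to 0.91), so a 2-fold lower signal lies inside both intervals.

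**Figure D2:**
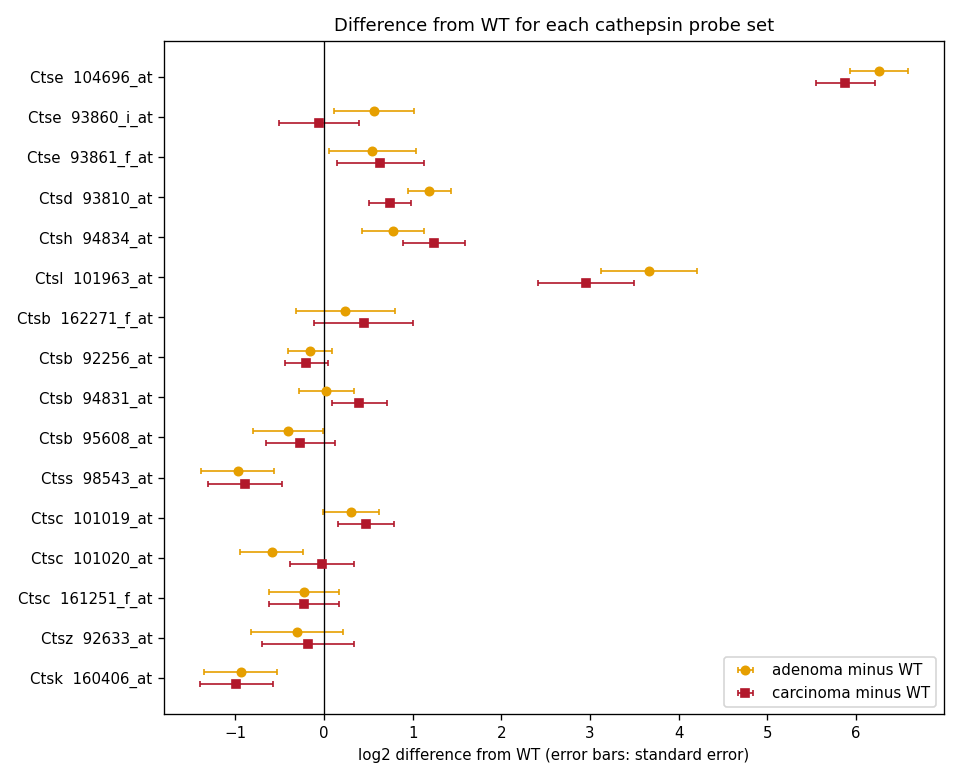
Log2 difference from WT of each of the 16 cathepsin probe sets (horizontal axis) in adenoma (circles) and carcinoma (squares), with bars of 1 standard error from the fit over all probe sets. Of the 3 probe sets named Ctse, 104696_at lies near 6 and the others lie near 0 to 0.64, and the probe sets of Ctsb and Ctsc fall on both sides of 0.

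All 9 genes passed the filter on low values, which asked for a signal over the floor on 5 or more of the 16 arrays. In the limma fit over 7455 genes, 3 of the 9 were past the threshold in adenoma, all higher (Ctse, Ctsd and Ctsl), where 4.02% of all genes were called higher. In carcinoma 3 of the 9 were past it, all higher (Ctse, Ctsh and Ctsl), where 4.16% of all genes were called higher. Nothing is read from these counts, because the genes were chosen from these contrasts. The adenoma arrays lay wholly above WT for 3 members, against 3.06% of all genes. The carcinoma arrays lay wholly above WT for 2 members, against 3.13% of all genes, and wholly below WT for Ctsk, against 3.15%. The median log2 difference of the 9 was 0.31 in adenoma and 0.47 in carcinoma, beside -0.14 over all genes in each. The Ctsh call in carcinoma was lost in 12 of the 29 alternative settings, among them those without WT 1, 2 or 3 or carcinoma 1, 4 or 5. Ctsd passed in adenoma and Ctsh in carcinoma, but for both the interval of the difference between the tumours, given next, included 0. By probe set (10563 tested), 3 of the 16 cathepsin probe sets were past the threshold in adenoma, where 7.77% of all probe sets were, 3 in carcinoma, where 8.68% were, and none between the tumours, where 0.0379% were. They were the main probe sets of the same genes.

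Carcinoma was set against adenoma for the same genes. None of the 9 was past the threshold of limma, where 0.0268% of all genes (2 of 7455) were. Ctsl was the member with the largest difference, at -0.71 (95% interval -1.89 to 0.47). Ctsd was at -0.45 (-0.96 to 0.07) and Ctse at -0.38 (-1.09 to 0.33). Ctsh was at 0.46 (-0.30 to 1.22) and Ctsb at 0.37 (-0.30 to 1.04). Ctsc, Ctsz, Ctss and Ctsk differed by 0.16, 0.12, 0.08 and -0.05. The carcinoma and adenoma arrays overlapped for all 9 genes and all 9 intervals included 0, while those of Ctsl, Ctse, Ctsh, Ctsb and Ctsz extended past a 2-fold difference.

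Some members varied together with the spike-in signal of the array. The array of highest spike-in signal in each group was adenoma 4, carcinoma 5 and WT 5, a choice made after the values were seen. On those 3 arrays Ctsl had the lowest value of its group each time, at 9.74, 9.61 and 5.55. Ctsz had the highest value of its group on the same 3 arrays, at 12.90, 12.72 and 13.54. Adjusted for the spike-in signal, Ctsz differed from WT by 1.07 ± 0.47 in adenoma and 1.20 ± 0.47 in carcinoma (SE), and Ctsb by 0.72 ± 0.31 and 1.09 ± 0.31. In the same setting Ctsc differed by -0.42 ± 0.31 and -0.26 ± 0.31, and Ctss by -1.64 ± 0.49 and -1.56 ± 0.49. The directions of Ctsz and Ctsc thus turned in that setting, while Ctse stayed at 6.51 and 6.13. Mean spike-in signal was itself higher in WT (13.74) than in adenoma (12.24) and carcinoma (12.23). The adjustment therefore cannot fully separate that signal from the group. Without those 3 arrays Ctsl differed by 3.64 and 2.78 and Ctsz by -0.31 and -0.11.

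**Figure D3:**
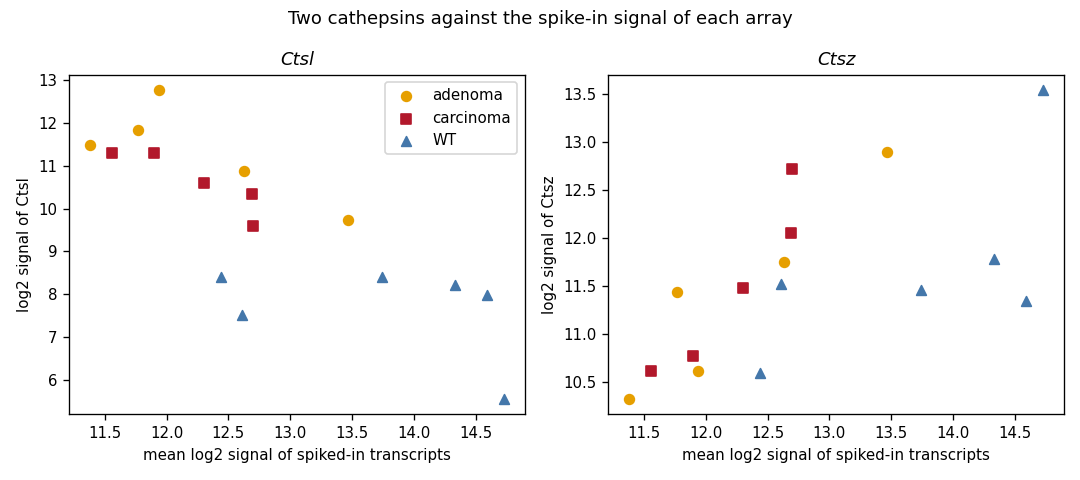
Log2 signal of Ctsl (left) and Ctsz (right) on the vertical axis against the mean log2 signal of the spiked-in transcripts on the horizontal axis, with 1 point per array in adenoma, carcinoma and WT. Within each group the array at the right end is lowest for Ctsl and highest for Ctsz.

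Other lysosomal genes were read on the same arrays, where 4.02% of all genes were called higher and 4.25% lower in adenoma, and 4.16% and 4.9% in carcinoma. Of 27 lysosomal hydrolases tested, 2 rose in adenoma, and 2 rose and 1 fell in carcinoma, with median log2 differences of 0.01 and -0.10. Ggh, which trims glutamate chains from folates, rose by 4.09 ± 0.43 in adenoma and 4.35 ± 0.43 in carcinoma (limma adjusted p = 4.37e-06 and 2.32e-06). Gusb, beta-glucuronidase, rose by 1.25 ± 0.24 and 1.40 ± 0.24 (limma adjusted p = 0.00267 and 0.000837). Arsa, arylsulfatase A, fell by 1.39 ± 0.34 in carcinoma (limma adjusted p = 0.0146) and read -0.59 ± 0.34 in adenoma. Both other cathepsins tested, Ctsa and Ctsf, were not past limma's threshold, nor at an unadjusted p under 0.05, at 0.57 ± 0.43 and -0.42 ± 0.36 in adenoma and 0.45 ± 0.43 and -0.72 ± 0.36 in carcinoma.

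Of 31 genes of the lysosomal membrane and of sorting to lysosomes, 3 rose in each tumour and none fell, with median log2 differences of 0.37 and 0.47. Scarb2, which carries glucocerebrosidase to lysosomes, rose by 1.43 ± 0.25 in adenoma and 1.58 ± 0.25 in carcinoma (limma adjusted p = 0.00119 and 0.000414). Lamp2, a main glycoprotein of the membrane, rose by 1.70 ± 0.43 and 1.88 ± 0.43 (limma adjusted p = 0.0179 and 0.00856), although the adenoma call was lost without adenoma 1 or 5 (1.42 to 2.03 over the fits with 1 array left out). Npc1, the cholesterol exporter, rose by 1.19 ± 0.26 and 1.12 ± 0.26 (limma adjusted p = 0.00702 and 0.0101). Adjusted for the Gapdh ratio, Gusb, Arsa, Scarb2, Lamp2 and Npc1 did not pass in either tumour. Lamp2 in both tumours, Gusb in adenoma and Arsa in carcinoma were also lost after adjustment for the spike-in signal and without 4 WT arrays of high spike-ins, Gusb in carcinoma in the second of these settings, and Arsa after quantile normalization. Over all 29 alternative settings Lamp2 ran from 1.01 to 2.45 in adenoma and from 1.17 to 2.55 in carcinoma, and Gusb from 0.81 to 1.55 and from 0.96 to 1.73. Scarb2 ran from 1.32 to 1.77 and from 1.48 to 1.91, Npc1 from 1.06 to 1.71 and from 0.99 to 1.64, and Arsa in carcinoma from -1.75 to -0.97.

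Of 7 inhibitors of cathepsins tested, 1 rose in adenoma and none passed limma's threshold in carcinoma (2 had an unadjusted p under 0.05), with medians of 0.20 and -0.25. Cstb, which encodes cystatin B, the inhibitor of cysteine cathepsins in the cytosol, rose by 0.76 ± 0.22 in adenoma (limma adjusted p = 0.0347) and read 0.61 ± 0.22 in carcinoma (limma adjusted p = 0.0856). That call was lost without WT 1, WT 6 or any of the adenoma arrays. The log2 differences were 0.66 to 0.83 over the fits with 1 array left out. Cstb in adenoma also failed after adjustment for the Gapdh ratio or the spike-in signal. It failed as well after quantile normalization and without 4 WT arrays of high spike-ins, and it passed in 15 of the 29 alternative settings. Cst3, cystatin C, the secreted inhibitor, read 0.84 ± 0.32 in adenoma and 0.51 ± 0.32 in carcinoma without passing (limma adjusted p = 0.119 and 0.337).

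Of 9 granule serine proteases tested, the substrates of cathepsin C among them, 2 rose in both tumours and none fell, with medians of -0.07 and -0.05. Mcpt2, a protease of mucosal mast cells, rose by 5.32 ± 0.39 in adenoma and 3.76 ± 0.39 in carcinoma (limma adjusted p = 5.23e-08 and 3.54e-06). Mcpt1, another protease of those cells, rose by 4.44 ± 0.45 and 3.96 ± 0.45 (limma adjusted p = 2.91e-06 and 9.38e-06). Of 10 mast cell markers tested, which include both genes, 3 rose in each tumour, the other being Cpa3, and 2 read below WT in adenoma and 4 in carcinoma. Ms4a2 read -0.82 ± 0.38 and -0.88 ± 0.38, Tpsb2 -0.54 ± 0.33 and -0.68 ± 0.33, and Kit 0.48 ± 0.38 and -0.56 ± 0.38. The Cpa3 call in carcinoma was lost after adjustment for the Gapdh ratio or the spike-in signal and with the floor at the 40th percentile. It was also lost without 4 WT arrays of high spike-ins and without the array of highest spike-in signal in each group. Summed mast cell marker signal ran from 4652 to 9686 in adenoma, 2842 to 5069 in carcinoma and 1577 to 2873 in WT. The interval of Ctsc, given above, included 0 in both tumours.

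**Figure D4:**
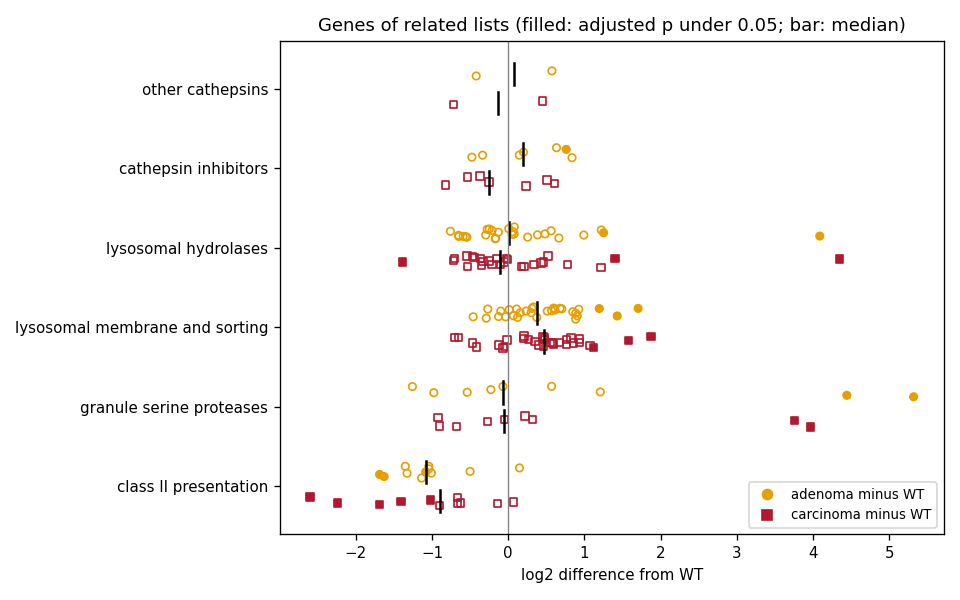
Log2 difference from WT (horizontal axis) of each tested gene in 6 lists related to the cathepsins, in adenoma (circles) and carcinoma (squares), filled where the limma adjusted p was under 0.05, with the list median as a black bar. The class II list lies mostly below 0, the hydrolases spread around 0 apart from Ggh, and Mcpt1 and Mcpt2 stand apart among the granule proteases.

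The genes whose pattern over the 16 arrays was most like that of Ctse were Anxa1, Cfi, Clu, Lamb3 and Plat. The measure was the mean absolute difference between log2 profiles centred on their own means, and it was 0.60 for Anxa1, 0.62 for Cfi, 0.66 for Clu, 0.68 for Lamb3 and 0.90 for Plat. Anxa1, annexin A1, differed from WT by 5.12 in adenoma and 5.37 in carcinoma. Clu, the secreted chaperone clusterin, differed by 6.92 and 6.66, and Cfi, complement factor I, by 6.32 and 6.15. These genes were picked for likeness to a large difference, so theirs is a description.

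Because cathepsin E is known from stomach epithelium, gastric markers were read too. Of 8 tested, Tff2, a trefoil peptide of gastric mucus, rose by 3.39 ± 0.85 in adenoma and 3.36 ± 0.85 in carcinoma (limma adjusted p = 0.0184 and 0.0173), and the calls were lost without adenoma 3 or 5 (2.82 to 3.72 over the fits with 1 array left out) or carcinoma 2 or 3 (2.76 to 4.35). Neither Tff2 call passed after adjustment for the Gapdh ratio or the spike-in signal, or without 4 WT arrays of high spike-ins. Anxa10 rose by 1.88 ± 0.52 in adenoma (limma adjusted p = 0.031), a call that held in 9 of 16 such fits, and read 1.38 ± 0.52 in carcinoma. The others did not pass, Atp4b of the parietal cell proton pump was at the floor on every array, and the list's medians were -0.06 and -0.47. Summed gastric signal ran from 1720 to 5289 in adenoma, 990 to 6296 in carcinoma and 1523 to 2977 in WT, so the groups overlapped. The part of gastric-type cells in the Ctse difference was not tested.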

How the data were processed

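Epithelial cells of the mouse ileum were captured by laser, their RNA was amplified in 2 rounds and hybridised to 16 Affymetrix MG_U74Av2 arrays, per the labels. The authors deposited an intensity on a linear scale for each probe set, and neither the labels nor the file headers name the software that made it. Array means after trimming 2% at each end were 500.3 to 500.4, so the arrays were not scaled again. Array medians ran from 126.8 to 234.2, and the number of arrays limits the precision.

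Intensities as deposited were floored at the 25th percentile (46.9) and taken to log2. Of 12488 probe sets, 66 controls were left out of tests, 10833 had 1 symbol in the platform annotation, 396 several and 1193 none listed. A gene was represented by its probe set of highest mean log2 signal, and genes over the floor on 5 or more of the 16 arrays (7455) were fitted with limma 3.58.1 in R 4.3.3, 3 groups in one model, with Benjamini-Hochberg adjustment, two-sided, at 0.05. Probe sets were fitted the same way (10563 tested). The fit was tested on simulated data.

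The cathepsin genes and the related lists were chosen with earlier results of these data known, so no p-value is given for a member. Up to 4 genes per related list and tumour with the smallest p were eligible to be named, as were the 5 genes most like Ctse; marker genes named from other lists were chosen after their values were seen. Probe sets of a gene count as discordant when their differences have opposite signs or lie more than 1 log2 unit apart. The alternatives changed the scaling, floor, filter, probe set rule, groups, covariates and arrays included. The labels do not say that same-numbered arrays of different groups belong together, so numbers were not treated as pairs. Correlations between the deviations of such arrays from their group means ran from -0.265 to 0.398. Differently numbered arrays were not set beside them, so these values cannot settle whether the numbers mark pairs. Promoters came from RefSeq (build GRCm38.p6), which gave 6 of the 9 members; the Ctsl and Ctsc windows begin inside the outermost gene span and were not used. Figures were drawn with matplotlib 3.10.9.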

Additional observations from a re-analysis of the deposited data

Results flagged for a closer look

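Among 48 groups of 5 or 6 arrays tested, 1 for each cathepsin probe set and group, 4 held an array far from the others, and chance flags about 1 in 20. That rate is for values without a floor. It does not apply to groups with arrays at the floor, such as Ctse in WT, where 2 of 6 arrays were above it. Ctsk read 5.55, the floor, on carcinoma 5, and the next lowest carcinoma array read 7.93. Ctsl read 5.55, the floor, on WT 5, and the next lowest WT array read 7.52. Ctse, by probe set 104696_at, read 7.01 on WT 5, and the next highest WT array read 5.80. Ctsc, by probe set 161251_f_at, read 6.35 on WT 2, and the next lowest WT array read 8.21. Carcinoma 5 and WT 5 were also the arrays of highest spike-in signal in their groups, and the part of that signal in these values was not tested.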

How the results depend on the processing

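There were 29 alternative settings. Against WT, 617 genes changed in adenoma and 675 in carcinoma. The Gapdh ratio as a covariate gave 70 and 100, and the spike-in signal 398 and 382. Leaving out 4 WT arrays with high spike-ins, so that only WT 3 and WT 6 remained, gave 181 and 209. Fits with 1 array left out gave 384 to 674 (lowest without adenoma 5) and 494 to 773 (lowest without carcinoma 1). By probe set the counts were 821 and 917, and under the same settings 97 and 145, 463 and 458, and 230 and 258, with 518 to 966 and 634 to 1084 when 1 array was left out. Carcinoma against adenoma gave 2 genes and 4 probe sets, with 0 and 2 at the 10th percentile floor, 5 and 7 at the 40th, 6 and 11 without the 4 WT arrays, 18 and 28 with array weights, 1 and 2 without the array of highest spike-in signal in each group, 6 and 9 in fits of both tumours alone, and 1 to 5 and 4 to 7 with 1 array left out. With the replicate number as a block the counts were 728, 842 and 2 genes and 1050, 1181 and 5 probe sets, in the same order of comparisons, and 3, 3 and 0 cathepsins. With 1 array left out, 3 to 4, 2 to 4 and 0 cathepsins were past the threshold.

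Other scalings moved the median log2 difference of all genes, which was -0.14 in both tumours, to -0.02 and -0.01 (quantile) and to 0.125 and 0.15 (medians aligned). The share of calls that were higher was 48.6% in adenoma and 45.9% in carcinoma as deposited, 62.8% and 58.9% after quantile normalization, and 75.9% and 73.7% with medians aligned. Ctse, Ctsl, Ctsd and Ctsh stayed higher and Ctss stayed lower under all 29 alternatives in both tumours. Among the scalings, Ctsb in adenoma changed sign after quantile normalization (-0.04), and Ctsz in carcinoma with medians aligned (0.14). The members were chosen from these contrasts, so their calls show only how they move with the settings and are no support for a difference. Ctse passed the threshold in all 29 in both tumours and Ctsl in all but the spike-in covariate in carcinoma. Ctsd in adenoma failed with the Gapdh covariate. Ctsh in carcinoma passed in 17, failing among others without WT 1, WT 2, WT 3 or carcinoma 1, 4 or 5. Ctsd in carcinoma passed in 7 of the 29. These were medians aligned, the 40th percentile floor, no filter, the mean of probe sets, array weights, and the fits without WT 5 or carcinoma 3. Ctsk in adenoma passed in 3: the 40th percentile floor, without carcinoma 5, and without the array of highest spike-in signal in each group. Ctsb in carcinoma passed with the spike-in covariate alone (1.09). Values at the floor limit the folds of Ctse, Ctsl and Ctsk.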
